A study of Mus musculus with 228 samples.

Results

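The Eph receptors and ephrins were followed here through 10 named genes in single hippocampal neurons. They are the receptors Epha4, Epha5, Epha6, Epha7, Ephb1 and Ephb2 and the ephrins Efna3, Efna5, Efnb2 and Efnb3. The members were chosen by gene name, with earlier results of these data known. All 10 were found among the 22870 gene rows of the count table. Of these, 9 passed the filter for expressed genes (a read in at least 25% of the cells of 1 group and at least 10 CPM, reads per 1000000, in the summed reads of 1 group), as did 10745 genes in all. Ephb2 did not pass, and counts below are over all 10 members.

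RNA was drawn from mouse neurons by patch pipette in acute slices and sequenced cell by cell. The cells fell into 4 groups. EGFP GC cells were ventral hippocampal granule cells (GC) of Calb1-Cre mice that had received AAV-EGFP, a Cre-dependent adeno-associated virus for green fluorescent protein. Ascl4 GC cells came from the same line and had received AAV-EGFP together with AAV-Ascl4, a virus for the basic helix-loop-helix (bHLH) transcription factor Ascl4. EGFP CA1 and Ascl4 CA1 cells were pyramidal neurons of medial CA1 in Nex-Cre mice, given the same viruses in the same way. All mice were adults of 3 to 4 months, and cells were taken 1 month after injection. Cell type and Cre line cannot be told apart, nor can Ascl4 and the added virus, since no cells carried another virus in its place.

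Eph receptors are receptor tyrosine kinases whose ligands, the ephrins, sit on the surface of neighbouring cells. Ephrin-A proteins are held by a lipid anchor and bind mainly EphA receptors, whereas ephrin-B proteins span the membrane and bind mainly EphB receptors, with EphA4 able to bind both classes. Contact between cells can start signalling in the cell with the receptor and in the cell with the ephrin, and in the hippocampus this system is known for guiding axons, shaping dendritic spines and regulating synapses.

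Ascl4 belongs to a family of proteins whose relatives bind the short DNA motif CANNTG, called an E-box. The 250 bases before the annotated start of 5 members are therefore shown. They are the members whose difference between Ascl4 GC and EGFP GC cells held in every summary of the data, as defined below. The sequences are from RefSeq on GRCm38.p6, are written 5′ to 3′ on the strand of the gene, and end at the base before the start. Capitals mark every CANNTG, a motif that reads the same on both strands.
Epha6, chr16:60605532-60605781, minus strand: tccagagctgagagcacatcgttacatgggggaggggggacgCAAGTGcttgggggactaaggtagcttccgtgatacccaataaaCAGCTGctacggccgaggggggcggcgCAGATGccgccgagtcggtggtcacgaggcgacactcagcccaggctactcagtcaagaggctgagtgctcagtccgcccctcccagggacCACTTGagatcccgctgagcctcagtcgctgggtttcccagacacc
Epha5, chr5:84417383-84417632, minus strand: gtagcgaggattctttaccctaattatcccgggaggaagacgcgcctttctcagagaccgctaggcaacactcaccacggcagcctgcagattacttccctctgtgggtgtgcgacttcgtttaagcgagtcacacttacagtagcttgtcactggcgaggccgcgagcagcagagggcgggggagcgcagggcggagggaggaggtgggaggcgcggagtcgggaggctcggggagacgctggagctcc
Epha7, chr4:28812881-28813130, plus strand: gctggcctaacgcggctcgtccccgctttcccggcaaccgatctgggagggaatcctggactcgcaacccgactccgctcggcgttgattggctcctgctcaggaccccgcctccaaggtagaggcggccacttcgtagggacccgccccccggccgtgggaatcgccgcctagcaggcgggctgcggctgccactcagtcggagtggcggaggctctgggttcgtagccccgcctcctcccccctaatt
Ephb1, chr9:102354694-102354943, minus strand: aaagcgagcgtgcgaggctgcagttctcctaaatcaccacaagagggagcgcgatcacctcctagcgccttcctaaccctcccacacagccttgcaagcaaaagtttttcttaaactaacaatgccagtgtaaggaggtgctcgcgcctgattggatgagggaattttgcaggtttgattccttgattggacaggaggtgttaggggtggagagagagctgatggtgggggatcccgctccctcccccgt
Efna5, chr17:62881318-62881567, minus strand: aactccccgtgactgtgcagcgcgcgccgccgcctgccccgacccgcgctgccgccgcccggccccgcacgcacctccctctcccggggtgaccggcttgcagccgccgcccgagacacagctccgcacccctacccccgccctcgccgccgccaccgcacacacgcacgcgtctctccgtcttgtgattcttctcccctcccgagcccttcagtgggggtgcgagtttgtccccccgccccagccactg

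Of the members, 9 had a promoter entry in the RefSeq table. Epha6 held 4 E-boxes, whose first bases lay at -208, -164, -137 and -46 from the start, and the one at -164 was CAGCTG. No CANNTG stood in these 250 bases of Epha4, Epha5, Epha7, Ephb1 or Efna5. Ephb2 and Efnb2 held 1 each, the first CAGGTG and the second its reverse complement CACCTG, and Efna3 held 2 before the farther of its 2 annotated starts and none before the nearer. Among 32851 mouse promoter windows of this length, 66.2% held a CANNTG, 13% a CAGCTG and 17.2% a CAGGTG or CACCTG, which are special cases of CANNTG. A match is a description of the letters and not a binding site.

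The quality-controlled count table held 47 EGFP GC and 51 Ascl4 GC cells, and 46 EGFP CA1 and 45 Ascl4 CA1 cells, with 1077532 to 25442664 reads each. No animal is named in the labels. A group was therefore 1 sample, nothing was tested between groups, and how far animals differ is unknown. Reads of a group were summed and scaled to CPM, and groups were compared as log2 ratios after adding 1 CPM, so that folds of low genes come out too small. A member was called different at 1.5-fold or more. A difference was said to hold when the sums, the means over single cells and both runs of title numbers within a group all passed that fold in 1 direction. The labels do not call these runs batches. The second run of Ascl4 CA1 joins cells whose title numbers lie before and after those of the EGFP CA1 cells of that run. Intervals are 95% exact Poisson (CPM) or exact Clopper-Pearson (shares of cells), and cover no more than counting error, because amplified reads carry no molecular identifier here and are not independent molecules. The targeted gene Ascl4 stood at 14111 and 9395 CPM in the Ascl4 groups of GC and CA1 and at 47.2 and 32.6 CPM in the EGFP groups. Summed markers of the labelled type reached 100 CPM in 46 of 47 EGFP GC, 48 of 51 Ascl4 GC and all CA1 cells. This level did not separate the types, because markers of the other type often reached it too. CA1 markers did so in 41 of 47 EGFP GC and 46 of 51 Ascl4 GC cells. Granule cell markers did so in CA1 in 31 of 46 cells with EGFP and 41 of 45 with Ascl4.

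The first comparison asked how the members differed between Ascl4 and EGFP granule cells. The receptors Epha5, Epha7 and Ephb1 were lower in Ascl4 GC cells, with log2 ratios of -2.52, -1.12 and -4.33, and these differences held. Epha6 and the ephrin Efna5 were higher, at 1.29 and 2.45, and held as well. In all, 2 members were higher and 5 lower by 1.5-fold or more. Among all expressed genes 57.3% passed that fold in either direction, 26.7% higher and 30.6% lower, so that a call by itself is common. The difference held for 5 of 10 members, against 22.7% of expressed genes. Because the members were chosen with earlier results of these data known, such shares test nothing about them, here or in the comparisons below. The median log2 ratio was -0.26 over the 10 members and 0.07 over the 9 that passed the expression filter, beside -0.06 for all expressed genes, so that its sign turned with Ephb2. With the values as the authors normalized them, 4 members were higher and 6 lower.

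The second comparison set Ascl4 CA1 against EGFP CA1 cells. Here Epha5, Epha6, Efna3 and Efnb2 were lower and held, at log2 ratios of -0.83, -1.84, -1.11 and -1.44. In all, 1 member was higher and 5 were lower, where 50% of expressed genes passed the fold in either direction (25.2% higher, 24.8% lower). The difference held for 4 of 10 members and 18.4% of expressed genes. The median was -0.59 over the members and -0.78 over the 9 that passed the filter, beside -0.01 for all expressed genes. With the authors' normalized values 2 members were higher and 5 lower. Epha5 was thus lower with Ascl4 in both neuron types, and Epha6 was higher in GC and lower in CA1. The difference between these 2 responses was not tested.

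The third comparison, EGFP CA1 against EGFP GC cells, gave the levels in the 2 neuron types without Ascl4, and it shares its cells with both comparisons above. Epha4, Epha6 and Efna3 were higher in CA1 cells and held, at log2 ratios of 1.01, 2.56 and 1.83, and Epha7 and Ephb1 were lower and held, at -0.96 and -4.33. In all, 5 members were higher and 4 lower, where 58.3% of expressed genes passed the fold (31.3% higher, 27% lower), and 5 of 10 held, against 26.6%. Ascl4 CA1 was set against Ascl4 GC in the same way, sharing its cells with the first 2 comparisons. In these cells Epha5 and Efna3 were higher in CA1 and held, at 2.84 and 1.30, and the ephrins Efna5, Efnb2 and Efnb3 were lower and held, at -1.98, -1.05 and -1.11. These 5 were the only members past the fold in the summed reads, where 58.8% of expressed genes passed (33.6% higher, 25.3% lower) and 25.9% held. The median over the members was 0.30 in the EGFP cells and 0.14 in the Ascl4 cells. Over the 9 that passed the filter it was 0.86 and 0.11, beside 0.03 and 0.13 for all expressed genes.

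**Figure D1:**
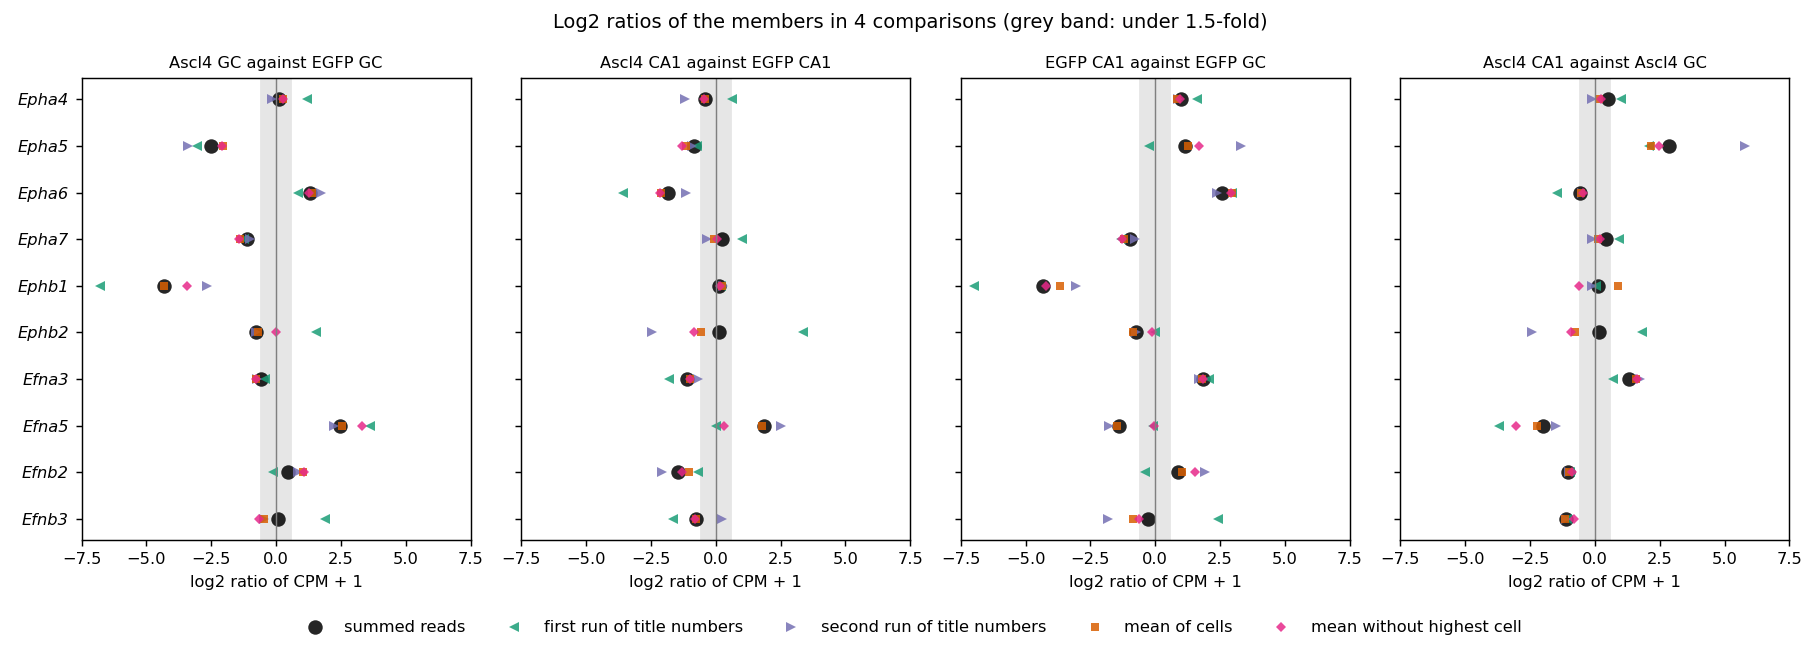
Log2 ratios (CPM with 1 added) of the 10 members in the 4 comparisons, with points for the summed reads, each run of title numbers, the mean of single cells and that mean with each group's highest cell left out. Epha5 lies left of the grey band (under 1.5-fold) in every summary of both Ascl4 comparisons, whereas Epha6 lies right of it in GC and left of it in CA1.

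Among the EphA receptors, Epha4 (chromosome 1, 77367185 to 77515088, minus strand, GRCm38 for this and all later positions) is the one with the broadest choice of ligands. It was read in all but 1 cell of each group and reached 10 CPM in 61.9% of all cells, the most of any member. EGFP GC cells held 0 to 1451 CPM with a median of 42.7, Ascl4 GC cells 0 to 1765 with a median of 5.97, EGFP CA1 cells 0 to 1397 with a median of 179.3, and Ascl4 CA1 cells 0 to 1295 with a median of 190. Cells with high Epha4 were thus found in every group and the ranges overlapped fully. The summed reads gave 176.9 CPM (175.1 to 178.7) in EGFP GC and 191.6 (190.1 to 193.2) in Ascl4 GC cells, and 357 (355 to 359) in EGFP CA1 and 270 (268 to 273) in Ascl4 CA1. Epha4 was 2.01-fold higher in EGFP CA1 than in EGFP GC cells, and it differed by less than 1.5-fold with Ascl4 in either type. The share of cells at 10 CPM or more was 69.6% (54.3 to 82.3) in EGFP CA1 and 80% (65.4 to 90.4) in Ascl4 CA1, against 51.1% (36.1 to 65.9) and 49.02% (34.75 to 63.4) in the 2 GC groups. The intervals of EGFP GC and EGFP CA1 overlapped, and those of the 2 Ascl4 groups did not. In the 2 runs the Ascl4 response pointed in opposite directions, at 1.20 and -0.17 in GC and 0.63 and -1.17 in CA1.

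Epha5 (chromosome 5, 84054761 to 84417382, minus strand), a receptor for ephrin-A ligands that is known mainly from the nervous system, reached 10 CPM in more cells of the CA1 groups than of the GC groups and was lower with Ascl4 in both neuron types. EGFP GC cells held 0 to 1555 CPM with a median of 1.66, Ascl4 GC cells 0 to 429 with a median of 0.41, EGFP CA1 cells 0 to 1652 with a median of 110, and Ascl4 CA1 cells 0 to 1103 with a median of 6.23. The EGFP CA1 group was the only one in which the middle cell was above 10 CPM. At least 10 CPM was found in 34 of 46 EGFP CA1 cells (73.9%, 58.9 to 85.7), 22 of 45 Ascl4 CA1 cells (48.9%, 33.7 to 64.2), 12 of 47 EGFP GC cells (25.5%, 13.9 to 40.3) and 6 of 51 Ascl4 GC cells (11.8%, 4.44 to 23.9). The intervals of neighbours in this order overlapped, while those of EGFP CA1 and EGFP GC did not.

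The summed reads of Epha5 kept the same order, with 214.7 CPM in EGFP CA1, 120.7 in Ascl4 CA1, 96.5 in EGFP GC and 15.97 in Ascl4 GC cells. The highest EGFP GC cell gave 38.3% of its group's summed CPM, and without the highest cell of each group the log2 ratio of the mean was -2.10 in GC and -1.29 in CA1. Both runs pointed the same way, at -3.07 and -3.38 in GC and -0.71 and -0.90 in CA1. Among the cells with at least 10 CPM the medians were close in CA1, at 160.8 CPM with EGFP and 153.8 with Ascl4. Fewer Ascl4 cells reached that level, 22 of 45 against 34 of 46. Over all CA1 cells the mean was 208.4 CPM with EGFP and 94.5 with Ascl4, or 176.3 and 71.6 without the highest cell. The parts of number and level in this difference were not separated. The level in EGFP GC cells differed between the runs, at 244.5 CPM in the first and 21.4 in the second, and the ratio of EGFP CA1 to EGFP GC was -0.26 in the first run and 3.30 in the second.

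Epha6 (chromosome 16, 59653483 to 60605531, minus strand), another ephrin-A receptor, was the member that differed in opposite directions with Ascl4 in the 2 neuron types. Cells ranged from 0 to 107.2 CPM in EGFP GC and 0 to 390 in Ascl4 GC, and from 0 to 920 in EGFP CA1 and 0 to 227.1 in Ascl4 CA1, and the median was 0 in every group but EGFP CA1, where it was 0.13. Epha6 was thus absent or nearly so from most cells, and the groups overlapped. It reached 10 CPM in 19 of 46 EGFP CA1 cells (41.3%, 27 to 56.8), and in 5 of 47 EGFP GC cells, 6 of 51 with Ascl4 and, in CA1, 5 of 45 with Ascl4 (11.1%, 3.71 to 24.05). In CA1 fewer Ascl4 than EGFP cells reached this level, and the medians of such cells were 89.7 CPM with EGFP and 124.7 CPM with Ascl4. In GC the medians were 62.6 CPM in 5 EGFP cells and 159.4 CPM in 6 Ascl4 cells. The parts of number and level were not separated, and these medians rest on few cells.

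Summed over each group, Epha6 stood at 7.87 CPM (7.495 to 8.25) in EGFP GC and 20.7 (20.1 to 21.2) in Ascl4 GC cells, and 51.4 (50.5 to 52.3) in EGFP CA1 and 13.7 (13.2 to 14.2) in Ascl4 CA1. The runs gave 0.85 and 1.72 for Ascl4 GC against EGFP GC, and -3.56 and -1.16 for Ascl4 CA1 against EGFP CA1. Without the highest cell of each group the ratios of the mean were 1.25 and -2.14. With Ascl4 the 2 neuron types stood less than 1.5-fold apart (log2 ratio -0.56), whereas CA1 was 5.91-fold higher among the EGFP cells. The annotated antisense gene Gm9017 shares 2.02% of the exon bases of Epha6, it has no row of its own in the count table, and the strand setting of the counting is not given in the sources used here.

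**Figure D2:**
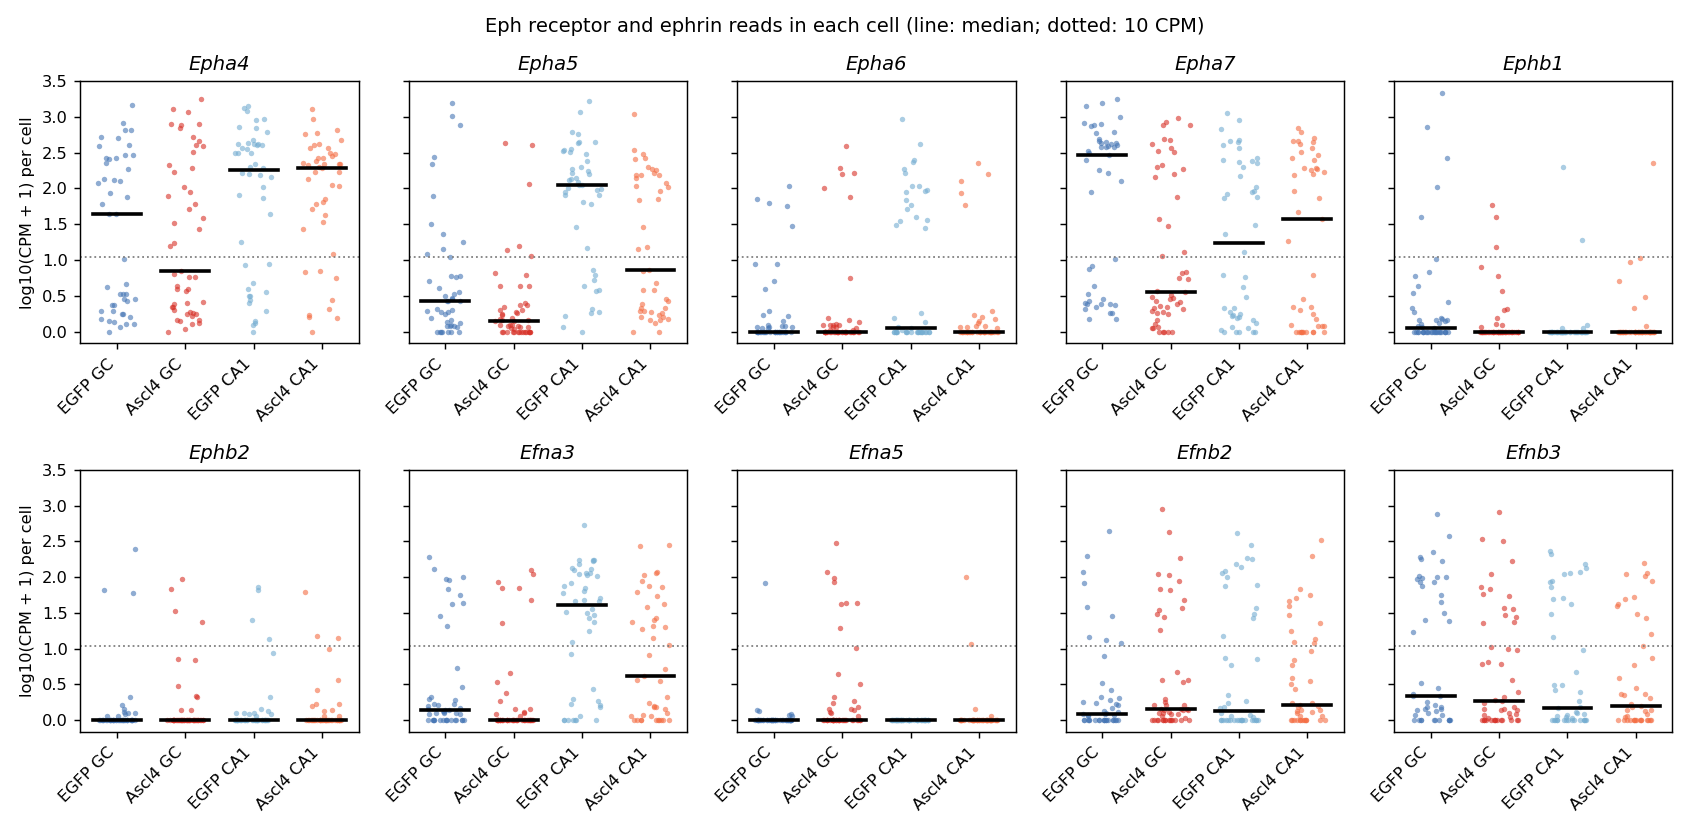
Reads of each member in each quality-controlled cell, as log10 of CPM with 1 added, by group, with the median as a line and 10 CPM dotted. Points gather near 0 and in a band above 10 CPM, and for Epha7 in EGFP GC cells the median of 295.5 CPM lies in the upper band.

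Epha7 (chromosome 4, 28813131 to 28967499, plus strand), an ephrin-A receptor known from axon mapping and dendritic spine formation, was the leading receptor of EGFP granule cells and was lower with Ascl4 in GC but not in CA1. EGFP GC cells held 0.49 to 1757 CPM with a median of 295.5, Ascl4 GC cells 0 to 955 with a median of 2.54, EGFP CA1 cells 0 to 1119 with a median of 16.9, and Ascl4 CA1 cells 0 to 707 with a median of 36.8. EGFP GC was the only group in which every cell had a read of Epha7, and no other member was read in every cell of any group. In that group 18 cells lay below 10 CPM and the lowest of the other 29 stood at 89.2 CPM, so that no cell lay between. The share at 10 CPM or more was 61.7% (46.4 to 75.5) in EGFP GC and 39.2% (25.8 to 53.9) in Ascl4 GC cells, with overlapping intervals, and 52.2% and 53.3% in EGFP CA1 and Ascl4 CA1 cells.

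The level of Epha7 among cells with at least 10 CPM was also lower in Ascl4 GC cells, with a median of 266 CPM against 432. The summed reads gave 318 CPM (316 to 321) in EGFP GC and 145.7 (144.3 to 147.1) in Ascl4 GC cells, and 163.1 (161.6 to 164.7) in EGFP CA1 and 195.8 (193.9 to 197.7) in Ascl4 CA1. The log2 ratio of -1.12 in GC was found at a similar size in both runs, -1.22 and -1.02. In CA1 the ratio was 0.26 and pointed in opposite directions in the runs, at 0.99 and -0.33. Without Ascl4, Epha7 was 1.95-fold higher in GC than in CA1 cells, and with Ascl4 the 2 types differed by less than 1.5-fold.

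EphB receptors bind ephrin-B ligands and are known for their part in forming excitatory synapses. Both EphB members, Ephb1 and Ephb2, reached 10 CPM in few cells. Ephb1 (chromosome 9, 101922128 to 102354693, minus strand) reached 10 CPM in 11 cells, with 5 in EGFP GC and 3 in Ascl4 GC cells, and 2 in EGFP CA1 and 1 in Ascl4 CA1. The medians were 0.13 CPM in EGFP GC and 0 elsewhere, and the highest cells stood at 2160 CPM in EGFP GC and 58.6 in Ascl4 GC cells, and 196.5 in EGFP CA1 and 228.7 in Ascl4 CA1. The highest EGFP GC cell alone gave 65.2% of the summed CPM of its group. Leaving out each group's highest cell, the mean was 25.1 CPM in EGFP GC and 1.42 in Ascl4 GC, and the log2 ratio of the means moved from -4.33 to -3.43. The runs gave -6.80 and -2.67, and the first run rests on 1 EGFP GC cell at 10 CPM or more. Ephb1 was read at all in 24 of 47 EGFP GC and 12 of 51 Ascl4 GC cells, and in 5 of 46 cells of EGFP CA1 and 7 of 45 with Ascl4. After thinning each cell to 500000 reads these numbers were 13, 8, 2 and 4. EGFP GC cells thus had the most cells with a read at equal depth as well. The shares at 10 CPM overlapped in their intervals in all 4 groups. The lincRNA gene Gm26846 on the other strand shares 2.17% of the exon bases of Ephb1 and has no row in the count table.

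Ephb2 (chromosome 4, 136647539 to 136835988, minus strand) reached 10 CPM in 14 cells, 3 or 4 in each group, and its summed level was 7.52 CPM in EGFP GC and 4.00 in Ascl4 GC cells, and 4.15 in EGFP CA1 and 4.63 in Ascl4 CA1. In all groups the median cell was at 0, and the highest stood at 247, 94.6, 70.7 and 61.6 CPM in the same order. Ephb2 was thus rare in every group. Its log2 ratio of -0.77 in Ascl4 GC against EGFP GC cells was 0.00 in the means without the highest cell and 1.55 in the first run. In EGFP CA1 against EGFP GC cells the ratio of -0.73 was -0.12 without the highest cells.

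Of the ephrin-A genes, Efna3 (chromosome 3, 89313899 to 89322965, minus strand) was the one found in most cells, above all in CA1. EGFP CA1 cells held 0 to 529.5 CPM with a median of 39.97, Ascl4 CA1 cells 0 to 284 with a median of 3.20, EGFP GC cells 0 to 187.9 with a median of 0.38, and Ascl4 GC cells 0 to 123.6 with a median of 0. The highest cells stood in CA1, while all groups had cells at 0. At least 10 CPM was found in 31 of 46 EGFP CA1 cells (67.4%, 52.0 to 80.5), 20 of 45 Ascl4 CA1 cells (44.4%, 29.6 to 60), 11 of 47 EGFP GC cells (23.4%, 12.3 to 38.03) and 7 of 51 Ascl4 GC cells (13.7%, 5.70 to 26.3). Neighbours in this order overlapped in their intervals, EGFP CA1 and EGFP GC did not, and Ascl4 CA1 and Ascl4 GC did not either.

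Summed, Efna3 stood at 67.6 CPM in EGFP CA1, 30.7 in Ascl4 CA1, 18.3 in EGFP GC and 11.9 in Ascl4 GC cells. It was 3.55-fold higher in EGFP CA1 than in EGFP GC cells and 2.47-fold higher in Ascl4 CA1 than in Ascl4 GC cells. Ascl4 CA1 was lower than EGFP CA1 in both runs, at -1.80 and -0.69, and Ascl4 GC was lower than EGFP GC by a smaller amount, at -0.44 and -0.73, so that only the CA1 difference held. Its exons share 14.1% of their bases with the antisense gene Gm15998, which has no row in the count table.

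Efna5 (chromosome 17, 62604184 to 62881317, minus strand) encodes an ephrin-A ligand known from the mapping of axons onto their targets. It was read in few cells, and most of these were Ascl4 GC cells. The median was 0 in every group, and the highest cell stood at 81.9 CPM in EGFP GC and 301 in Ascl4 GC cells, and 0 in EGFP CA1 and 98.01 in Ascl4 CA1. The cells at 10 CPM or more numbered 1 of 47 in EGFP GC (2.13%, 0.054 to 11.3) and 8 of 51 in Ascl4 GC (15.7%, 7.02 to 28.6), with overlapping intervals, and both runs of Ascl4 GC held such cells, 3 of 33 and 5 of 18. The summed level was 1.61 CPM (1.45 to 1.79) in EGFP GC and 13.3 (12.8 to 13.7) in Ascl4 GC cells. In EGFP GC 1 cell gave 98.4% of the summed CPM, and without the highest cell of each group the log2 ratio of the mean was 3.31 in place of 2.52.

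In CA1, Efna5 had no read in any of 46 EGFP cells, which allows a share of up to 6.52% of cells with a read when 3 cells are taken as the limit of a count of 0. The exact interval reaches 7.71%. It stood at 2.61 CPM in Ascl4 CA1 cells, at least 216.8-fold higher than the floor of 3 reads over the EGFP CA1 group (0.012 CPM). With the exact counting interval in place of that floor, the lower limit of the log2 ratio was 7.46. This rests on 2 of 45 cells at 10 CPM or more, of which the higher gave 89.8% of the summed CPM, and both were in the second run. No fold was taken in the first run, where both groups were at 0. Against the same floor, Efna5 in EGFP GC was at least 134.3-fold higher than in EGFP CA1, again through 1 cell (log2 limit of the exact interval -6.76 for EGFP CA1 against EGFP GC), and the medians over the members did not move with Efna5 at these bounds.

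Efnb2 and Efnb3, the ephrin-B members, reached 10 CPM in 19.1% to 42.6% of the cells of a group. Efnb2 (chromosome 8, 8617434 to 8661242, minus strand), a transmembrane ligand that also signals into its own cell, held 0 to 438 CPM in EGFP GC cells with a median of 0.23, 0 to 907.5 in Ascl4 GC cells with a median of 0.43, 0 to 407 in EGFP CA1 cells with a median of 0.37, and 0 to 333 in Ascl4 CA1 cells with a median of 0.65. The median cell was thus below 1 CPM in all 4 groups. The share at 10 CPM or more was 19.1%, 27.5%, 32.6% and 28.9% in the same order, with overlapping intervals. The summed level was 21.7 CPM in EGFP GC and 30.5 in Ascl4 GC cells, and 40.3 in EGFP CA1 and 14.3 in Ascl4 CA1. Among cells at 10 CPM or more the median was 112.5 CPM in EGFP CA1 and 38.7 in Ascl4 CA1, so that in CA1 the level of these cells differed more than their number. The difference in CA1 was found in both runs, at -0.68 and -2.07. The ratio of EGFP CA1 to EGFP GC turned from 0.86 to -0.40 in the first run.

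Efnb3 (chromosome 11, 69554092 to 69560205, minus strand), the ephrin-B known as a midline repellent for axons, held 0 to 768 CPM in EGFP GC cells with a median of 1.19, 0 to 808 in Ascl4 GC cells with a median of 0.87, 0 to 231.4 in EGFP CA1 cells with a median of 0.50, and 0 to 159.01 in Ascl4 CA1 cells with a median of 0.57. The highest cells were granule cells, and the ranges overlapped. The share at 10 CPM or more was 42.6% in EGFP GC and 29.4% in Ascl4 GC, and 32.6% in EGFP CA1 and 26.7% in Ascl4 CA1, with overlapping intervals. The summed level was 52.5, 55.2, 43.6 and 24.99 CPM in this order. Efnb3 was 2.16-fold higher in Ascl4 GC than in Ascl4 CA1 cells, the same way in both runs (-1.08 and -1.10). Its ratio in Ascl4 CA1 against EGFP CA1, -0.78, was -1.63 in the first run and 0.22 in the second.

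**Figure D3:**
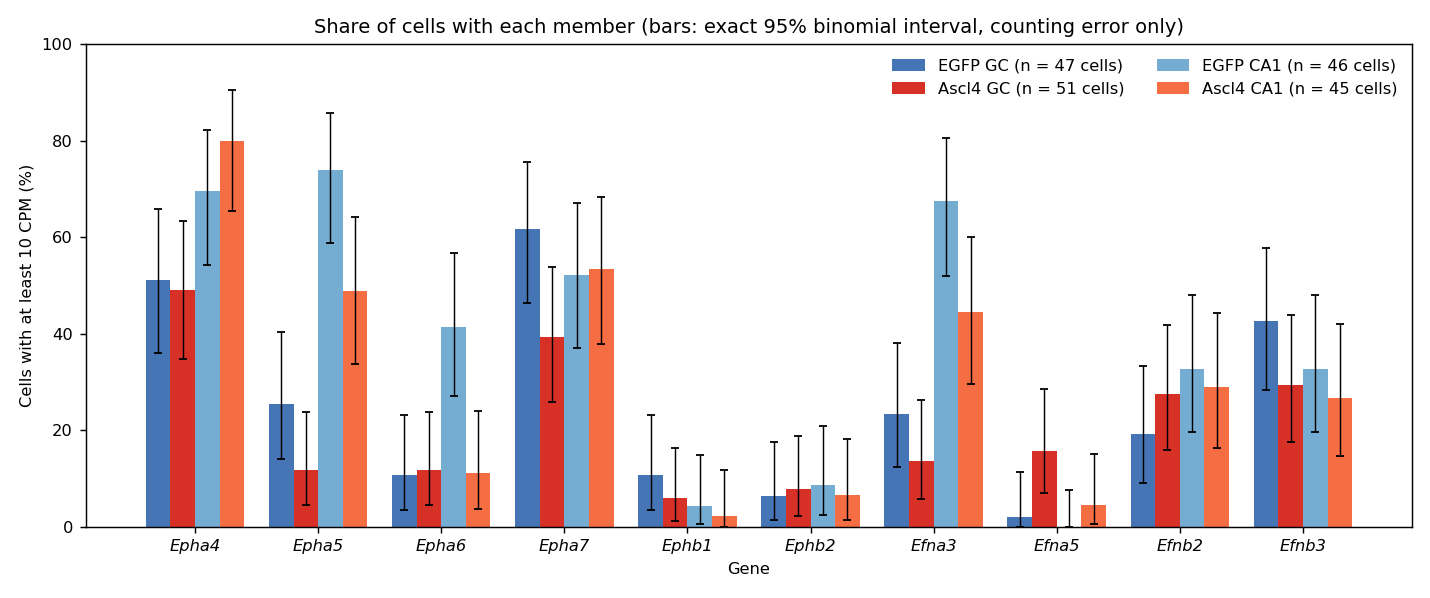
Share of cells with at least 10 CPM of each member in the 4 groups, with exact 95% binomial intervals that cover counting error only. Epha5 and Efna3 stand highest in EGFP CA1 cells, at 73.9% and 67.4%, and Ephb1, Ephb2 and Efna5 stay below 16% in every group.

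Per kilobase of exon, the order of the members differed between the groups. In EGFP GC cells Epha7 led with 32.2 CPM per kb, followed by Epha4 with 21.96 and Efnb3 with 16.5. In Ascl4 GC cells Epha4 led with 23.8, followed by Efnb3 with 17.3 and Epha7 with 14.7. In both CA1 groups Epha4 was first, with 44.3 in EGFP and 33.6 in Ascl4 cells. Efna3 was next in EGFP CA1 cells with 27.8, and Epha7 in Ascl4 CA1 cells with 19.8. The 6 receptors together came to 71.7 CPM per kb in EGFP GC and 44.1 in Ascl4 GC cells, and 84.04 in EGFP CA1 and 63.9 in Ascl4 CA1, and the 4 ephrins to 27.6, 29.95, 47.4 and 23.2. The receptor sum was lower with Ascl4 in both runs of GC, at 40.9 against 76.3 and 47.9 against 69.4 CPM per kb. In CA1 it was higher with Ascl4 in the first run (81.7 against 65.8) and lower in the second (49.5 against 94.1). The ephrin sum was lower with Ascl4 in both runs of CA1, at 20.2 against 63.6 and 25.6 against 38.4.

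Cell by cell, most neurons had few members at 10 CPM or more. The median was 2 members per cell in EGFP GC, with a range of 0 to 6, and 2 in Ascl4 GC, also 0 to 6. It was 4 in EGFP CA1 (0 to 8) and 3 in Ascl4 CA1 (0 to 7). No member reached this level in 6, 7, 5 and 3 cells of the groups in that order. At least 1 receptor reached it in 37 of 47 EGFP GC cells, 38 of 51 with Ascl4, 40 of 46 EGFP CA1 cells and 41 of 45 with Ascl4, and at least 1 ephrin in 30, 30, 37 and 31. A receptor and an ephrin stood together in 26, 24, 36 and 30 cells. In every group most cells with an ephrin thus also had a receptor, but so did most cells of the group as a whole. An EphA receptor together with an ephrin-A was found in 10 EGFP GC and 11 Ascl4 GC cells and in 31 EGFP CA1 and 20 Ascl4 CA1 cells. In the same order an EphA receptor was found in 36, 36, 40 and 41 cells and an ephrin-A in 12, 14, 31 and 21. Whether the 2 go together was not tested. Cells with 3 or more of the 4 EphA receptors numbered 11 in EGFP GC and 2 in Ascl4 GC cells, and 24 in EGFP CA1 and 14 in Ascl4 CA1.

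The receptor with the most reads in a cell, among cells with any receptor at 10 CPM or more, was Epha7 in 19 and Epha4 in 14 of 37 EGFP GC cells. In Ascl4 GC cells it was Epha4 in 17 and Epha7 in 12 of 38. In EGFP CA1 cells Epha4 led in 19, Epha5 in 11 and Epha7 in 7 of 40 cells, and in Ascl4 CA1 cells Epha4 led in 21, Epha7 in 12 and Epha5 in 6 of 41. Epha5 led in 2 cells of each GC group. These counts use reads and not reads per length, so longer genes are favoured.

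**Figure D4:**
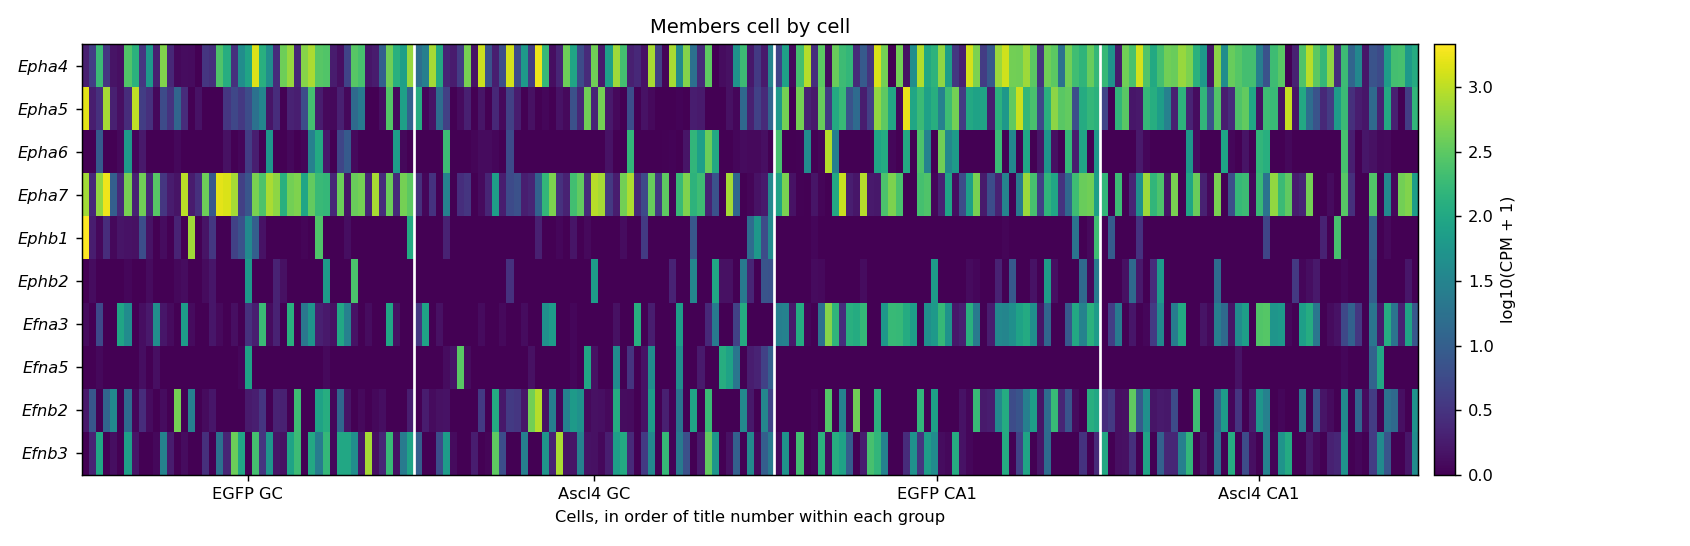
Log10 of CPM with 1 added for the 10 members (rows) in the quality-controlled cells (columns), in order of title number within each group. Epha5 and Efna3 are bright across most EGFP CA1 cells, Efna5 is dark in all 46 of them, and 6, 7, 5 and 3 cells by group have no member at 10 CPM or more.

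Members were weakly related to each other across the cells of a group. The highest Spearman correlation, over pairs found in enough cells, was 0.43 for Epha4 and Efnb3 in 47 EGFP GC cells, where 15 cells had both at 10 CPM or more. In Ascl4 GC cells the same pair had a Spearman correlation of -0.17, with 8 of 51 cells holding both. Epha5 and Efnb3 had a Spearman correlation of 0.39 in Ascl4 CA1 cells, and Epha4 and Epha5 0.36 in EGFP GC and 0.31 in EGFP CA1 cells. These values are descriptions over cells that share their groups, depth and unnamed animals, and in sparse reads a weak relation is no finding. Over all cells and 10250 genes compared, the 3 genes most like Epha5 were Ppp2r2b, Kcnn2 and Fibcd1 (Spearman correlation 0.52, 0.50 and 0.50), all 3 with more reads in the CA1 than in the GC groups. Those most like Efna3 were Snhg11, Rprml and Dkk3 (0.48, 0.47 and 0.44), also with more reads in the CA1 groups. These values over all cells include the difference between the neuron types. Within the 4 groups the correlation with Epha5 was 0.08 to 0.43 for Ppp2r2b, 0.09 to 0.53 for Kcnn2 and -0.13 to 0.27 for Fibcd1. That with Efna3 was 0.14 to 0.38 for Snhg11, 0.15 to 0.41 for Rprml and 0.01 to 0.21 for Dkk3. For Epha7 they were Enpp5, Vstm2a and Nedd4 (0.39, 0.34 and 0.32), and for Epha4 Ociad2, Slc1a1 and Sfxn3 (0.38, 0.38 and 0.35). Efnb2 was most like Grik2 (0.34), and Efnb3 was most like Syt13 (0.35).

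Of the other 12 genes of the family, 6 passed the filter for expressed genes. No difference with Ascl4 held for any of the 12 in either neuron type. In Ascl4 GC against EGFP GC cells 3 were higher and 3 lower in the summed reads, and in CA1 3 were higher and 6 lower. Among all expressed genes 57.3% in GC and 50% in CA1 passed the fold with Ascl4, and 22.7% and 18.4% held. Between neuron types, Ephb3 and Ephb6 were higher in CA1 and held among EGFP and among Ascl4 cells. Ephb3 had 2 and 30 reads over the 2 GC groups, at 0.009 and 0.10 CPM, and stood at 32.8 CPM in EGFP CA1 and 17.8 in Ascl4 CA1, with 8 of 46 and 7 of 45 cells at 10 CPM or more. Ephb6, an Eph family protein without kinase activity, stood at 28.6 and 13.3 CPM in EGFP GC and Ascl4 GC and at 102.3 and 128.5 CPM in EGFP CA1 and Ascl4 CA1 cells. Efna1 was lower in Ascl4 CA1 than in Ascl4 GC cells and held, at 0.009 against 13.3 CPM. Epha3, a receptor for ephrin-A ligands, stood at 79.5 CPM in EGFP GC and 8.03 in Ascl4 GC cells, and 37.9 in EGFP CA1 and 8.69 in Ascl4 CA1. It was lower with Ascl4 in the sums of both types, but the ratio in the first run was -0.18 in GC and 0.47 in CA1.

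**Figure D5:**
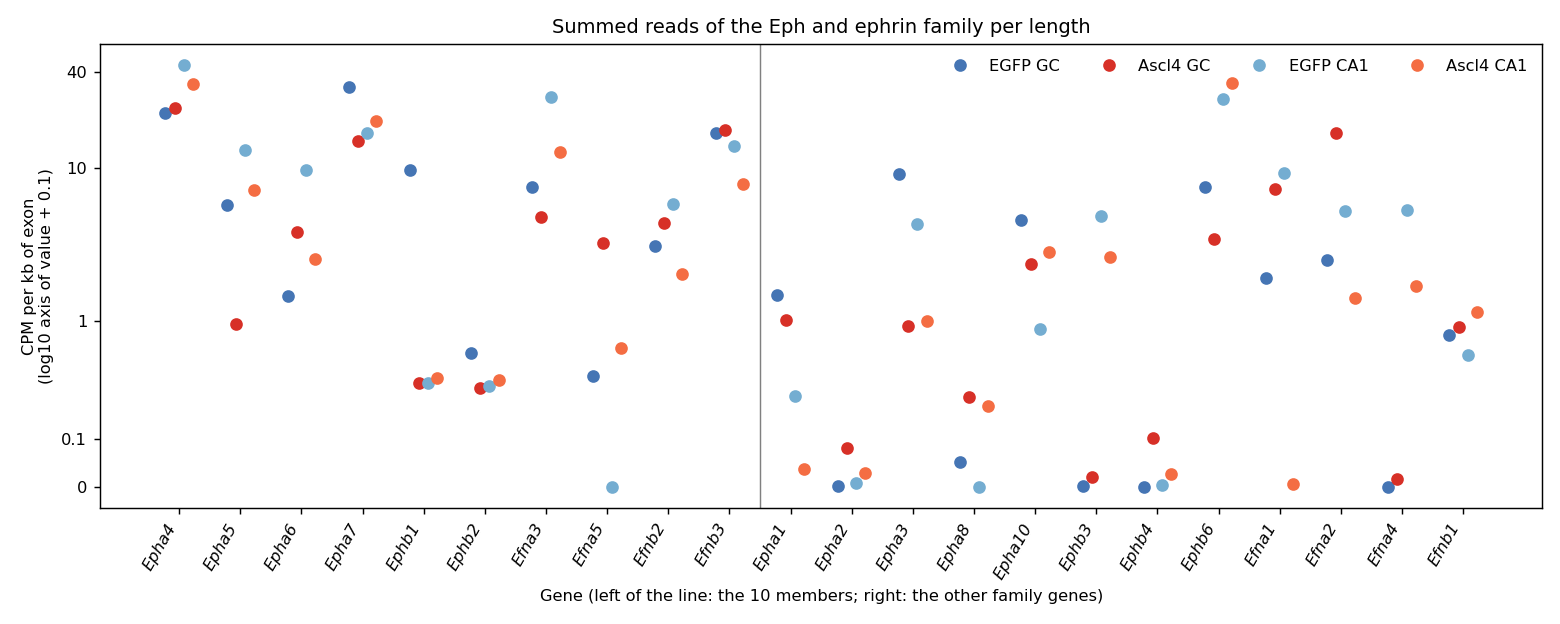
Summed reads per kilobase of exon for all 22 family genes (log10 axis of the value with 0.1 added), 1 point per group. Among the members Epha7 lies highest in EGFP GC cells and Epha4 in the other 3 groups, and among the other genes Ephb3 and Ephb6 are higher in both CA1 groups than in both GC groups.

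Of 44 genes that act with Eph receptors or ephrins, 42 were found and 37 passed the expression filter. For all expressed genes, 57.3%, 50%, 58.3% and 58.8% passed the fold in the 4 comparisons, in the order given below. Of all expressed genes 22.7%, 18.4%, 26.6% and 25.9% held, so that calls are common outside the partners too. In Ascl4 GC against EGFP GC cells 19 of the 42 were higher and 11 lower, and 7 and 2 held. Among the 37, the largest ratios that held were those of Vav3, an exchange factor for small GTPases, at 53.4 CPM in EGFP and 4.41 in Ascl4 GC cells (log2 ratio -3.33), and, higher with Ascl4, the adaptor Grb2 (2.39), the chimaerin Chn2 (2.22) and the syndecan Sdc2 (1.98). In Ascl4 CA1 against EGFP CA1 cells 9 were higher and 6 lower, and 4 and 1 held. There the tyrosine kinase Abl2 was lower, at 10.5 against 66.1 CPM (-2.54), and the scaffold proteins Grip2 and Grip1, which bind the tails of ephrin-B proteins and EphB receptors, were higher, at 2.40 and 1.83. Limk1 and Yes1, which did not pass the expression filter, held as well, at 2.29 and 1.98, from 3.92 and 2.97 CPM in Ascl4 CA1 cells. These 2 ratios rest on 3 and 2 of 45 Ascl4 CA1 cells at 10 CPM or more, and on 0 EGFP CA1 cells. Between EGFP CA1 and EGFP GC cells 16 were higher and 9 lower, and 5 and 6 held, led by Vav3 (-3.91), the exchange factor Tiam1 (-2.90), the phosphoinositide 3-kinase subunit Pik3r1 (2.64) and the adaptor Grb10 (2.29). Between Ascl4 CA1 and Ascl4 GC cells 12 were higher and 12 lower, and 5 held each way, led by Grip2 (3.29), Tiam1 (-3.24), Chn2 (-2.76) and Grb10 (2.43). Some of the named partners reached 10 CPM in few cells. Vav3 did so in 8 of 47 EGFP GC and 3 of 51 Ascl4 GC cells. Grip2 did so in 7 of 45 Ascl4 CA1 and 5 of 46 EGFP CA1 cells, and Grb10 in 7 of 45 Ascl4 CA1 and 1 of 51 Ascl4 GC cells. Grb2 and Tiam1 did so in 23 and 28 of 51 Ascl4 GC cells. The medians over the 42 genes were 0.31, 0.16, 0.04 and 0.10 in the 4 comparisons. Over the 37 that passed the filter they were 0.07, 0.14, 0.02 and -0.02, beside -0.06, -0.01, 0.03 and 0.13 for all expressed genes.

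Reads of other cell types were present and moved with the groups. The summed level of 12 microglia markers had a median of 23.8 CPM in EGFP GC (0 to 15516) and 160.9 in Ascl4 GC cells (0.19 to 14302), and 777 in EGFP CA1 (2.05 to 22826) and 1023 in Ascl4 CA1 (1.01 to 56303), with none of the 12 at 0 in any group. With Ascl4, 7 of 12 were higher in GC and 9 of 12 in CA1, and none was lower. Of the higher ones 5 held in GC and 0 in CA1. In CA1 the summed list was lower with Ascl4 in the first run (2183 against 3335 CPM) and higher in the second (6138 against 1312). Among all expressed genes 26.7% were higher and 30.6% lower with Ascl4 in GC, and 25.2% and 24.8% in CA1. All 12 interferon-induced genes were higher with Ascl4 in both types. Their summed level had medians of 2.16 CPM in EGFP GC (0 to 429, with Rsad2 at 0 throughout) and 566 in Ascl4 GC (0.25 to 4780), and of 3.79 in EGFP CA1 (0 to 1498) and 467 in Ascl4 CA1 (0 to 11392). Astrocyte markers had medians of 422 CPM (0.82 to 13088), 347 (0.48 to 6476), 577 (0.45 to 12528) and 250 (1.31 to 4129) in the order of the groups above, and with Ascl4 6 of 12 were higher and 4 lower in GC, and 4 higher and 4 lower in CA1. Oligodendrocyte markers had medians of 238 (1.44 to 5318), 44.7 (0.11 to 115517), 441 (0.31 to 20548) and 156.1 (0.38 to 35577) in the same order, with Opalin at 0 in EGFP CA1 and Olig2 at 0 in Ascl4 CA1 cells. In the summed reads 9 of 12 oligodendrocyte markers were higher with Ascl4 in GC and 6 in CA1, and 1 was lower in each. Of the higher ones 3 held in GC and 1 in CA1, while the medians over cells were lower with Ascl4 in both types. The summed list stood at 197.5 CPM in the first run of Ascl4 GC and at 16460 in the second. In EGFP GC it stood at 387.4 and 727 CPM. Endothelial and pericyte markers were near 0, with medians of 0.49 to 1.03 CPM. Interneuron markers had medians of 414 (0.59 to 1836) and 328 (0.41 to 1874) in the GC groups and 0.76 (0 to 2619) and 1.11 (0 to 1529) in the CA1 groups, with Lhx6 and Dlx2 at 0 in EGFP GC and Dlx2 at 0 in Ascl4 GC cells. Gad1 alone gave 449 of 520.3 CPM of this list in EGFP GC and 339 of 463 CPM in Ascl4 GC, while Gad2, Slc32a1, Lhx6, Dlx1, Dlx2 and Erbb4 were each below 1 CPM in both. The granule cell markers themselves had a median of 4185 CPM in EGFP GC and 2784 in Ascl4 GC cells, with 6 of 12 lower and 2 higher. In CA1 they had medians of 407 CPM with EGFP and 855 with Ascl4, with 7 of 12 higher (4 held) and 1 lower. The CA1 markers had medians of 670 CPM in EGFP GC and 957 in Ascl4 GC cells, with 5 of 12 higher and 3 lower (2 and 1 held). In CA1 cells they had medians of 4438 CPM with EGFP and 3845 with Ascl4, with 3 of 12 higher and 4 lower, of which 3 lower ones held. Among the lower ones, Neurod6 stood at 319 CPM with EGFP and 94.2 with Ascl4, and Fibcd1 at 543 and 165.4 CPM. These 2 do not stand for the list. Its summed level was 4207 CPM with EGFP and 4222 with Ascl4, and the median log2 ratio of its 12 genes was -0.12.

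Within groups the members were weakly related to these lists. Over 21 combinations of member and group with enough cells, the highest Spearman correlation with astrocyte markers was 0.48, for Efnb2 in 45 Ascl4 CA1 cells, and the lowest with microglia markers was -0.40, for Efna3 in 46 EGFP CA1 cells. With interferon-induced genes the correlation lay between -0.22 and 0.25. Depth was related to Efnb3 in Ascl4 CA1 cells (Spearman correlation 0.47 with reads per cell) and to Epha4 in EGFP CA1 cells (0.44 with the number of genes read). With Ascl4 itself, the correlation over 10 combinations in the Ascl4 groups lay between 0.01, for Efnb2 in GC, and 0.37, for Epha7 in CA1. Of the members whose lower level in the Ascl4 group held, those with enough cells also had a correlation above 0. These were Epha5 (0.35), Efna3 (0.29) and Efnb2 (0.05) in CA1 and Epha7 (0.09) in GC. Epha5 and Ephb1 in GC and Epha6 in CA1 held lower too, but have no value. They reached 10 CPM in less than 25% of the cells of the Ascl4 group. A relation to the level of Ascl4 was not tested. The part of other cell types, interferon-induced genes and depth in the differences of the members was not tested.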

How the data were processed

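Read counts per gene were deposited for all 228 cells and for the 189 cells that passed the authors' quality control. The signal in a further deposited table is these counts divided by a factor of each cell. Per the submitters' processing notes, reads went through STAR and HTSeq on GRCm38.p4. No source used here gives their versions, the strand setting, the normalization or the quality rules. The table used has 47 EGFP GC and 51 Ascl4 GC cells and 46 EGFP CA1 and 45 Ascl4 CA1 cells, where the series text counts 53, 52, 48 and 51. The 92 spike-in rows, with 4 reads, were left out of totals.

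Groups came from the cell titles. The members and gene lists were chosen with earlier results of these data known. Counts were summed per group, and no test was made, since the labels name no animal. The rule named all 10 members, the other 12 family genes, up to 4 expressed partner genes per comparison with the largest ratios that held, and the 3 genes most like each member found at 10 CPM in at least 25% of cells. Lengths and positions came from GENCODE on GRCm38 (22566 of 22870 symbols matched) and promoters from RefSeq. The code was tested on simulated data. Alternatives were 16 other settings, with edgeR 4.0.16 (TMM) and DESeq2 1.42.0 (median of ratios) used for scaling only, in Python 3.11.15 and R 4.3.3.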

Additional observations from a re-analysis of the deposited data

Results flagged for a closer look

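Epha6 differed with Ascl4 in opposite directions in the 2 neuron types. Its log2 ratio was 1.29 in Ascl4 GC against EGFP GC cells and -1.84 in Ascl4 CA1 against EGFP CA1 cells, and both runs of title numbers of each type pointed the same way as the sums. Since each group counted as 1 sample, the difference between the responses was not tested. The GC ratio rests on 5 EGFP and 6 Ascl4 cells with at least 10 CPM, and the CA1 ratio on 19 EGFP and 5 Ascl4 cells.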

How the results depend on the processing

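No paired analysis was possible because every title number belongs to 1 cell only and no number is shared between groups. Over 16 other settings, the count of members past 1.5-fold stayed within 1.5 times of 7, 6 and 9 in the first 3 comparisons. In Ascl4 CA1 against Ascl4 GC cells it was 5, and became 3 under a stricter expression filter (a read in 50% of cells and 50 CPM), which 7 members pass, and 9 in the first run of title numbers. Of 27 called ratios of single members, 23 kept their sign in every setting that gave a value and 19 were at least 1.5-fold the same way in all of them. In the first run the sign turned for Epha5 and Efnb2 in EGFP CA1 against EGFP GC (-0.26 and -0.40) and for Ephb2 in Ascl4 GC against EGFP GC (1.55). Efnb3 in Ascl4 CA1 against EGFP CA1 turned to 0.044 without the deepest 10% of cells and to 0.22 in the second run, and Efna5 had no read in either CA1 group in the first run. Leaving out the highest cell of each group took the mean ratio of Efna5 in Ascl4 CA1 against EGFP CA1 from 1.78 to 0.33, in EGFP CA1 against EGFP GC from -1.47 to -0.04, and in Ascl4 CA1 against Ascl4 GC from -2.22 to -3.03. The cause of these changes was not tested. Scaling by the authors' normalized values moved the median of all expressed genes by -0.38 in Ascl4 CA1 against Ascl4 GC and by -0.23 in EGFP CA1 against EGFP GC. A group with no read of a gene can still hold up to 3 reads' worth, 0.01 CPM, and the part of depth in the values of the rare members was not tested.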

Other observations

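The 39 cells left out by the authors' quality control, 13 EGFP GC and 5 Ascl4 GC, then 8 EGFP CA1 and 13 Ascl4 CA1, with 67889 to 8413883 reads each, enter no comparison above. Epha4 reached 10 CPM in 5, 4, 4 and 8 of them in that order, Epha7 in 7, 2, 1 and 4, and Epha5 in 6, 0, 3 and 5. Ephb1 reached it in 5 of the 13 EGFP GC cells, with a highest value of 382 CPM, and in none of the other cells left out. Efna5 had no read in the EGFP GC and EGFP CA1 cells left out, and its highest cell was an Ascl4 CA1 cell at 46.5 CPM.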
